A study of Homo sapiens with 6 samples.

Results

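The genes described here encode 47 synaptic and neuronal adhesion molecules, and were chosen by name. Each was read from the probe set whose platform annotation gives it as the only gene symbol, taking the probe set with the highest mean where a gene had several. All 47 were measured, out of 18417 genes in the series. RNA came from WM164, a human melanoma line labelled as BRAF mutant. The 3 samples labelled IDTC colony, described as resistant, had been kept for 60 days in 500 nM PLX4032, the BRAF inhibitor vemurafenib. The 3 parent samples were controls, which the series title describes as exposed to DMSO, the solvent. Each sample was hybridised to its own 1-colour Affymetrix whole-transcript array, so 6 arrays limit the precision. Everything comes from 1 cell line, and nothing in the labels says whether the colonies grew from 1 surviving cell or from many.

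Synaptic adhesion molecules are membrane proteins that hold a nerve terminal and its target cell together and help to set up release and receptor sites on either side. Neurexins sit mainly on the releasing side and bind neuroligins and LRRTM proteins across the cleft, while SLITRK proteins bind receptor-type protein tyrosine phosphatases. Contactins, the NCAM and L1 families and the IgLON proteins belong to the immunoglobulin superfamily and act in axon growth, bundling and myelination. Melanocytes derive from the neural crest, which also gives rise to peripheral neurons and glia, and melanoma cells are known to carry several of these proteins, of which NCAM1, L1CAM, MCAM and ALCAM are the best studied.

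Of the 47 genes, 13 were higher in colonies, 8 were lower and 26 did not pass the test (limma, Benjamini-Hochberg adjusted p under 0.05 over all 18417 genes). That is 27.7% higher and 17.0% lower, against 20.9% and 22.9% of all genes tested, and 44.7% called in either direction against 43.8%. Differences of at least 2-fold were found for 8 of them, 6 higher and 2 lower, or 12.8% and 4.26% against 2.65% and 2.76% of all genes. LRRTM4, SLITRK6, CNTN4, CNTN6, FLRT3 and NCAM1 made up the 6 and NRXN3 and FLRT2 the 2. The median difference over the 47 was 0.02 on the log2 scale, and that over all genes tested was -0.0042. The 47 genes were listed with earlier results of these data known, so these shares are a description of the list.

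**Figure D1:**
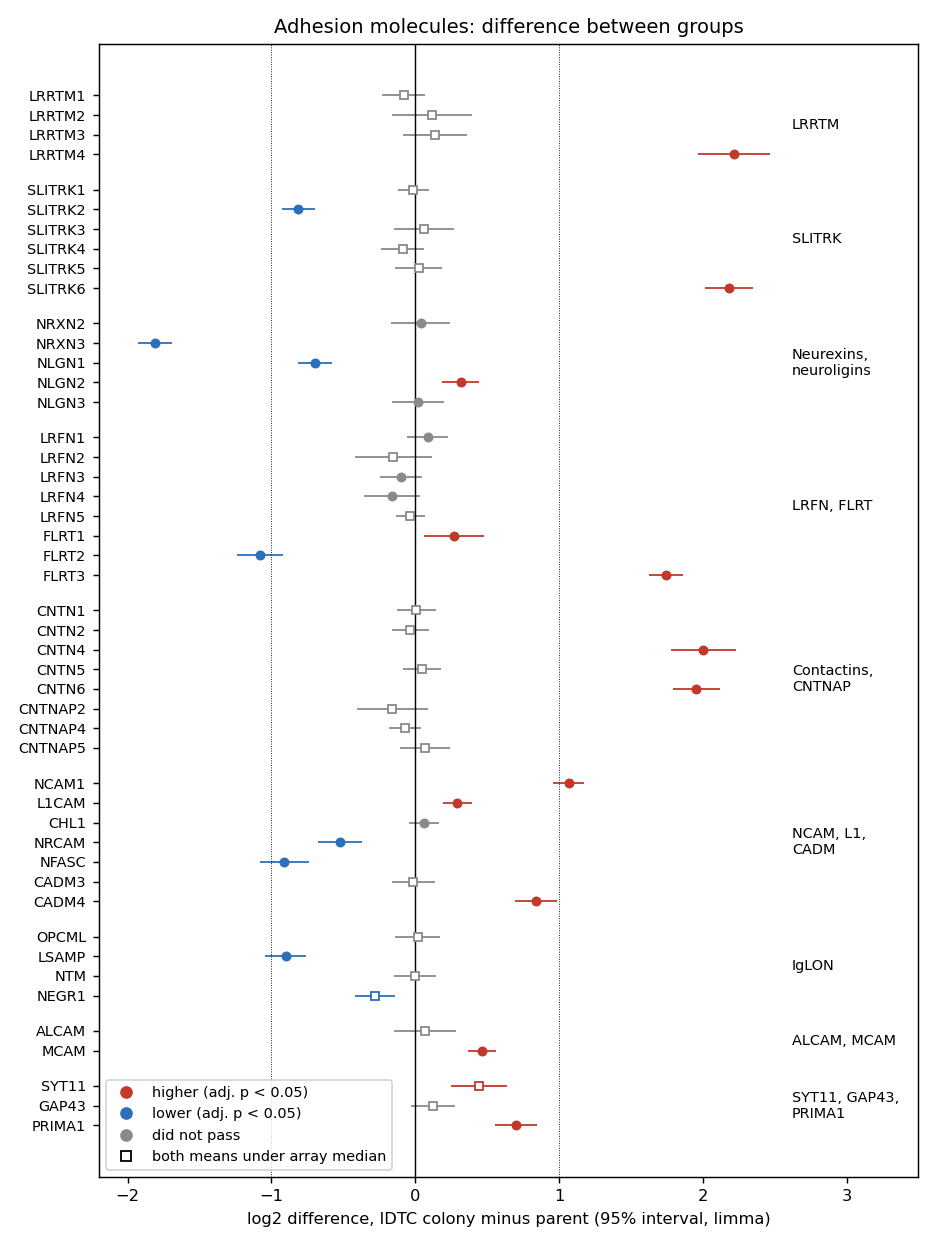
Log2 difference (IDTC colony minus parent) with its 95% interval from limma for each of the 47 genes, grouped by family. Filled circles and open squares separate genes by whether both group means lay under the array median. Most families hold 1 or 2 genes far from 0, such as LRRTM4 at 2.22 and NRXN3 at -1.81, beside several whose interval includes 0.

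Across all genes, the correlation between arrays was 0.997 to 0.998 within groups and 0.967 to 0.969 between them. Of 9 melanocyte lineage markers, 1 lay under the array median in both groups, TYRP1 (4.45 in colonies and 4.69 in parent samples). The others lay above it in both (deposited log2 values, mean ± SD, n = 3 arrays each). Among them, MITF averaged 11.14 ± 0.06 in colonies and 11.14 ± 0.01 in parent samples. PMEL averaged 12.86 and 12.52, and MLANA 9.50 and 10.94. Of 11 neuronal markers, 8 lay under the array median in both groups, among them the RNA-binding protein genes RBFOX3 (6.20 in colonies and 6.12 in parent samples) and ELAVL4 (4.57 and 4.46). The other 3, MAP2 (8.004 in colonies and 6.802 in parent samples), SNAP25 (8.06 and 7.00) and SYN1 (6.37 and 6.68), lay above it in both. Of 6 endothelial markers 5 were under it, PECAM1 (4.90 and 4.84) among them, and CLDN5 (6.79 and 6.80) was above. Of 6 fibroblast markers 3 were under the array median in both groups. COL1A1 (7.58 in colonies and 7.37 in parent samples) and LUM (7.76 and 8.11) were above it in both groups, and PDGFRA (5.77 and 6.35) in parent samples. Of 5 leukocyte markers 3 were under it, including PTPRC (3.71 and 3.67), while CD68 (9.78 in colonies and 11.05 in parent samples) was above it in both groups and LYZ (5.41 and 7.76) in parent samples. In bulk RNA, fewer cells that carry a transcript and less of it per cell cannot be told apart.

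For the genes that moved most, the DNA around the annotated gene start is shown. Among them, CNTN4 and CNTN6 changed together while FLRT2 and FLRT3 changed in opposite directions. Any bearing of these sequences on the differences was not tested. The sequences are RefSeq windows on GRCh38.p14, each running from 250 bases before to 50 bases after the start, 5′ to 3′ on the gene's own strand. Of the 8 genes past 2-fold, 6 had a window, and where a gene had several the one farthest upstream is printed. The start used in WM164 cells is not known from these data.
SLITRK6 (chr13:85799370-85799669, minus strand): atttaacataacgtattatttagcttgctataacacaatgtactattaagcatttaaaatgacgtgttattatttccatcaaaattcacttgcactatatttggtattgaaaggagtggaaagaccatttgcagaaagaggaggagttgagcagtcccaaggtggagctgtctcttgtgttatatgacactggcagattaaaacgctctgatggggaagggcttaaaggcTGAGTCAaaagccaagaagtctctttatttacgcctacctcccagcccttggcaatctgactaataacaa
CNTN4 (chr3:2098616-2098915, plus strand): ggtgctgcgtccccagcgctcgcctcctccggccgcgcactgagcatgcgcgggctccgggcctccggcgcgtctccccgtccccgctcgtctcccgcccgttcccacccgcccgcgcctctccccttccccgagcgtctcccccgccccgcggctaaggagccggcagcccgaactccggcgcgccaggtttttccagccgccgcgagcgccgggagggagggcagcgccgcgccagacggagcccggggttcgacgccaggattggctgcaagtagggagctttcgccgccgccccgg
CNTN6 (chr3:1092774-1093073, plus strand): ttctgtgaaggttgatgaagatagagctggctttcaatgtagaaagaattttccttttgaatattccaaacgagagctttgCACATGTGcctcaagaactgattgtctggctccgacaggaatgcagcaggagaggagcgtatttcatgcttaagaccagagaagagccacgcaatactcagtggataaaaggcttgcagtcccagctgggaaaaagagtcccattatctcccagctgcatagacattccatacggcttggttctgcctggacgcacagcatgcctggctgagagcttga
FLRT3 (chr20:14337563-14337862, minus strand): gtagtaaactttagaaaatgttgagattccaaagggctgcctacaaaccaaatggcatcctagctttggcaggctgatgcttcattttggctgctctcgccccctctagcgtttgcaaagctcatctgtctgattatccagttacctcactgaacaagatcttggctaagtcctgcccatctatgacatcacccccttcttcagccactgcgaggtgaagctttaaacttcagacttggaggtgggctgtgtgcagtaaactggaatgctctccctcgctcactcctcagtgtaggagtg
FLRT2 (chr14:85529894-85530193, plus strand): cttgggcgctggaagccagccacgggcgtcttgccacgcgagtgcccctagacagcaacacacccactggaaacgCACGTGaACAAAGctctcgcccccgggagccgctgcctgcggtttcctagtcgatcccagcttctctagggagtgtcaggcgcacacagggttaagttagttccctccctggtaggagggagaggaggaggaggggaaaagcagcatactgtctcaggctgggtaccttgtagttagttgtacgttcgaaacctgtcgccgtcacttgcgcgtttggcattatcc
NRXN3 (chr14:78170123-78170422, plus strand): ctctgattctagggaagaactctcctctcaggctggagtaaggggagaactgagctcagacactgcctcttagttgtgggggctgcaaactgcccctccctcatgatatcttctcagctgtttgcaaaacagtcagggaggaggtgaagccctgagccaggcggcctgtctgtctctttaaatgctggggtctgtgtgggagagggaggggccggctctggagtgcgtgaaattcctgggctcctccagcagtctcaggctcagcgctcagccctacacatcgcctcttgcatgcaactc
Capitals mark matches, on either strand, to 5 motifs: the palindromic E-box CACGTG, the related E-box that reads CATGTG, the AP-1 motif TGANTCA, the cyclic AMP response element TGACGTCA and the SOX-type motif spelled ACAAAG. In the SLITRK6 window an AP-1 match begins 20 bases before the start, and 7.71% of all 35116 windows hold this motif. CNTN6 has overlapping matches to the related E-box on both strands, the first beginning 169 bases before the start (11.1% of all windows). FLRT2 has the palindromic E-box, present in 7.26% of windows, beginning 175 bases before the start, and the SOX-type motif, present in 16.1%, beginning 168 bases before it. None of the 5 motifs matched in the CNTN4, FLRT3 or NRXN3 windows, which says only that these letters are not in those stretches. CNTN4 and CNTN6 are neighbours and both rose, but their windows differ in composition: 77.3% G and C with 46 CpG dinucleotides for CNTN4, and 47.3% with 6 for CNTN6. The windows of FLRT3 and FLRT2 held 48.7% and 59.0% G and C, with 4 and 19 CpG dinucleotides. SLITRK6 had 38.7% with 4 CpG dinucleotides and NRXN3 57.0% with 5. Across the 69 windows of the 42 adhesion genes in the table, 4.35% held the palindromic E-box, 10.1% the related E-box, 5.80% the AP-1 motif, 4.35% the cyclic AMP response element (1.85% of all windows) and 13.0% the SOX-type motif.

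LRRTM proteins are leucine-rich repeat molecules of the receiving side of excitatory synapses that bind neurexins, and LRRTM4 also binds heparan sulfate proteoglycans such as GPC4. Of the 4 genes, LRRTM4 rose and the other 3 did not pass the test. LRRTM4 (probe set 8053315) read 7.33, 7.24 and 7.32 in colonies 1 to 3, against 5.24, 5.17 and 4.82 in parent samples 1 to 3. Every colony lay above every parent sample, and parent sample 3 was the lowest. The difference was 2.22 ± 0.11 (log2 difference ± SE, adjusted p = 3.3e-06), or 4.65-fold, and ranked 53 among the rises of all genes. The parent mean of 5.08 ± 0.22 was under the array median (6.31, the mean over the 6 arrays), and its distance from background was not tested. LRRTM1, LRRTM2 and LRRTM3 stayed under the array median in both groups, with differences of -0.08, 0.12 and 0.14, and the group values of each overlapped. All 3 lie inside alpha-catenin genes in the RefSeq order, namely CTNNA2, CTNNA1 and CTNNA3, none of which passed the test either (0.04, -0.00033 and 0.08). LRRTM4 lies on the same chromosome as LRRTM1 but outside CTNNA2, which is the fifth measured gene to one side of it, with GCFC2 (-0.14) and REG3G (-0.02) as its nearest measured genes, and the 50 nearest genes above the array median, which are shared with LRRTM1, had a median difference of -0.14.

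SLITRK proteins, relatives of the SLIT guidance factors and of neurotrophin receptors, promote synapse formation through presynaptic phosphatases. SLITRK6 rose, SLITRK2 fell and the other 4 of the 6 were not called. SLITRK6, which in mouse supports the innervation of the inner ear, read 8.74, 8.82 and 8.84 in the colonies, against 6.76, 6.52 and 6.57 in the parent samples. The groups were far apart, and the parent mean of 6.62 lay just above the array median. SLITRK6 rose by 2.18 ± 0.07 (adjusted p = 5.3e-07), or 4.54-fold. SLITRK2 was lower in every colony (7.00, 7.09 and 7.12) than in any parent sample (7.91, 7.87 and 7.87). SLITRK2 fell by 0.81 on the log2 scale (SE 0.05, adjusted p = 8.8e-06), beside a median of -0.02 among its 50 neighbours above the array median. SLITRK1, SLITRK3, SLITRK4 and SLITRK5 lay under the array median in both groups, with differences between -0.09 and 0.06. SLITRK6 is flanked directly by SLITRK1 (-0.01) and SLITRK5 (0.02) among the measured genes of chromosome 13, neither of which passed the test. The next genes outward were SPRY2 (0.45) and SP3P (-0.06).

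**Figure D2:**
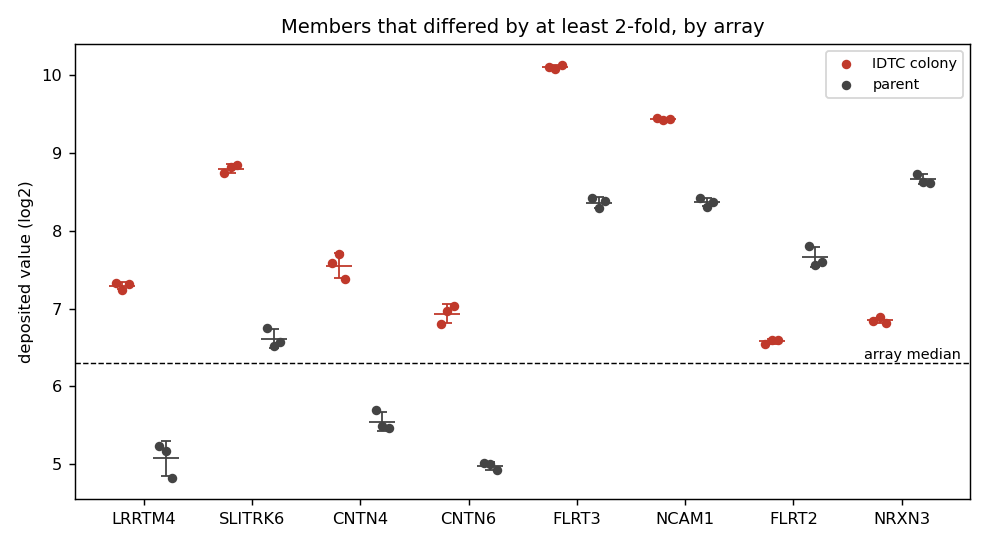
Deposited log2 values of the 8 genes that differed by at least 2-fold, in 3 IDTC colony arrays (left of each pair) and 3 parent arrays (right), with the mean and SD of each group. The dashed line is the array median of 6.31. Groups do not overlap for any of the 8 genes, which were picked for the size of their difference. Over all genes, 24.4% had all colonies above all parent samples and 26.4% all below. The parent values of LRRTM4, CNTN4 and CNTN6 lie under the line.

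Neurexins and neuroligins form the best known bridge across the synapse. NRXN3, a neurexin, had the deepest fall of the 47 genes. It read 6.84, 6.89 and 6.82 in the colonies, against 8.73, 8.63 and 8.62 in the parent samples. All colonies lay below all parent samples, with both means above the array median. NRXN3 fell by 1.81 on the log2 scale (SE 0.05, adjusted p = 2.9e-07), a 3.51-fold difference that ranked 146 among the falls of all genes. NRXN2 did not pass (0.04, 95% interval -0.17 to 0.24).

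The 3 neuroligins, which receive neurexins on the other side of the cleft, went separate ways. NLGN1, found at excitatory synapses, read 8.51, 8.50 and 8.50 in the colonies, against 9.27, 9.13 and 9.19 in the parent samples, and fell by 0.70 (SE 0.05, adjusted p = 2.1e-05). NLGN2, found at inhibitory synapses, rose by 0.32 ± 0.06 (adjusted p = 0.0024), with values of 8.51, 8.50 and 8.45 in colonies against 8.08, 8.17 and 8.26 in parent samples. For both genes the groups were apart, NLGN1 with colonies below and NLGN2 with colonies above. NLGN3 did not pass (0.02, 95% interval -0.16 to 0.20).

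FLRT proteins carry leucine-rich repeats and a fibronectin domain, bind latrophilins and UNC5 receptors, and take part in FGF receptor signalling and cell sorting in the embryo. Here 2 of the 3 rose and 1 fell. FLRT3 read 10.11, 10.08 and 10.13 in the colonies, against 8.42, 8.29 and 8.38 in the parent samples. It rose by 1.74 ± 0.05 (adjusted p = 3.4e-07), or 3.35-fold, with both group means well above the array median. FLRT2 went the other way, with 6.55, 6.60 and 6.59 in the colonies and 7.81, 7.57 and 7.61 in the parent samples. FLRT2 fell by 1.08 (SE 0.07, adjusted p = 1.2e-05), or 2.11-fold. Neither gene's groups overlapped. FLRT1 was higher by 0.27 ± 0.09 (adjusted p = 0.041), a narrow call that ended without colony replicate 1 (0.19, adjusted p = 0.12), colony replicate 3 (0.28, adjusted p = 0.10), parent replicate 1 (0.21, adjusted p = 0.12), parent replicate 2 (0.31, adjusted p = 0.066) or parent replicate 3 (0.30, adjusted p = 0.081). It also ended with all probe sets in the fit (adjusted p = 0.082) and with the replicate block (adjusted p = 0.082).

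FLRT3 lies within a host gene, MACROD2, in the RefSeq order. MACROD2 averaged 5.70 ± 0.07 in colonies and 5.50 ± 0.17 in parent samples and did not pass the test (0.20 ± 0.09, adjusted p = 0.11). FLRT1 overlaps MACROD1, which did not pass either (0.18 ± 0.07, adjusted p = 0.086). Around FLRT3 the 50 nearest genes above the array median had a median of 0.22, with 28 called higher and 8 lower. A fit of only the 11191 genes above the array median called 3481 higher and 3936 lower. Neighbour counts given here and below are to be set beside these. Any link between the difference of FLRT3 and its surroundings was not tested.

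LRFN proteins, also called SALMs, carry leucine-rich repeats outside the cell, and LRFN1, LRFN2 and LRFN4 bind PSD-95 inside it. By limma 0 of the 5 passed the test, and 0 had an unadjusted p under 0.05, with differences from -0.16 for LRFN4 to 0.09 for LRFN1 and 95% intervals that all lay between -0.42 and 0.23. LRFN1, LRFN3 and LRFN4 were above the array median, and LRFN2 and LRFN5 were below it in both groups. LRFN4 overlaps the pyruvate carboxylase gene PC, which fell by 0.66 (SE 0.05, adjusted p = 2.8e-05). LRFN2 was the only gene of the 47 with a second probe set, which read 4.75, 4.86 and 5.01 in colonies and 5.11, 5.10 and 4.97 in parent samples.

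Contactins are immunoglobulin-type proteins held in the membrane by a lipid anchor, and several act in axon guidance and in the organisation of myelinated fibres. CNTN4 and CNTN6 rose, while CNTN1, CNTN2 and CNTN5 did not pass. CNTN4 read 7.58, 7.70 and 7.38 in the colonies, against 5.69, 5.49 and 5.46 in the parent samples, a rise of 2.00 ± 0.10 (adjusted p = 3.5e-06) or 4.01-fold. CNTN6 read 6.80, 6.97 and 7.04 in the colonies, against 5.02, 5.00 and 4.92 in the parent samples, a rise of 1.95 ± 0.07 (adjusted p = 8.3e-07) or 3.88-fold. For both genes the groups were far apart, with a gap between the closest arrays of 1.68 for CNTN4 and 1.78 for CNTN6 on the log2 scale. Their parent means, 5.55 and 4.98, were under the array median and were not tested against background, so the sizes of these rises are those of the deposited values.

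CHL1, CNTN6 and CNTN4 follow one another among the measured genes at one end of chromosome 3. CHL1, a close homologue of L1CAM, read 8.49, 8.52 and 8.59 in the colonies and 8.47, 8.48 and 8.47 in the parent samples, and did not pass the test (0.06, 95% interval -0.05 to 0.17, adjusted p = 0.35). Its arrays did not overlap between the groups, as in 24.4% of all genes with colonies higher. On the other side of the pair, IL5RA (0.02) and TRNT1 (0.01) were followed by CRBN (0.64). Neither gene next to the pair, CHL1 or IL5RA, passed the test. The 26 genes above the array median that could be counted around CNTN4 had a median of 0.02, with 7 higher and 5 lower.

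**Figure D3:**
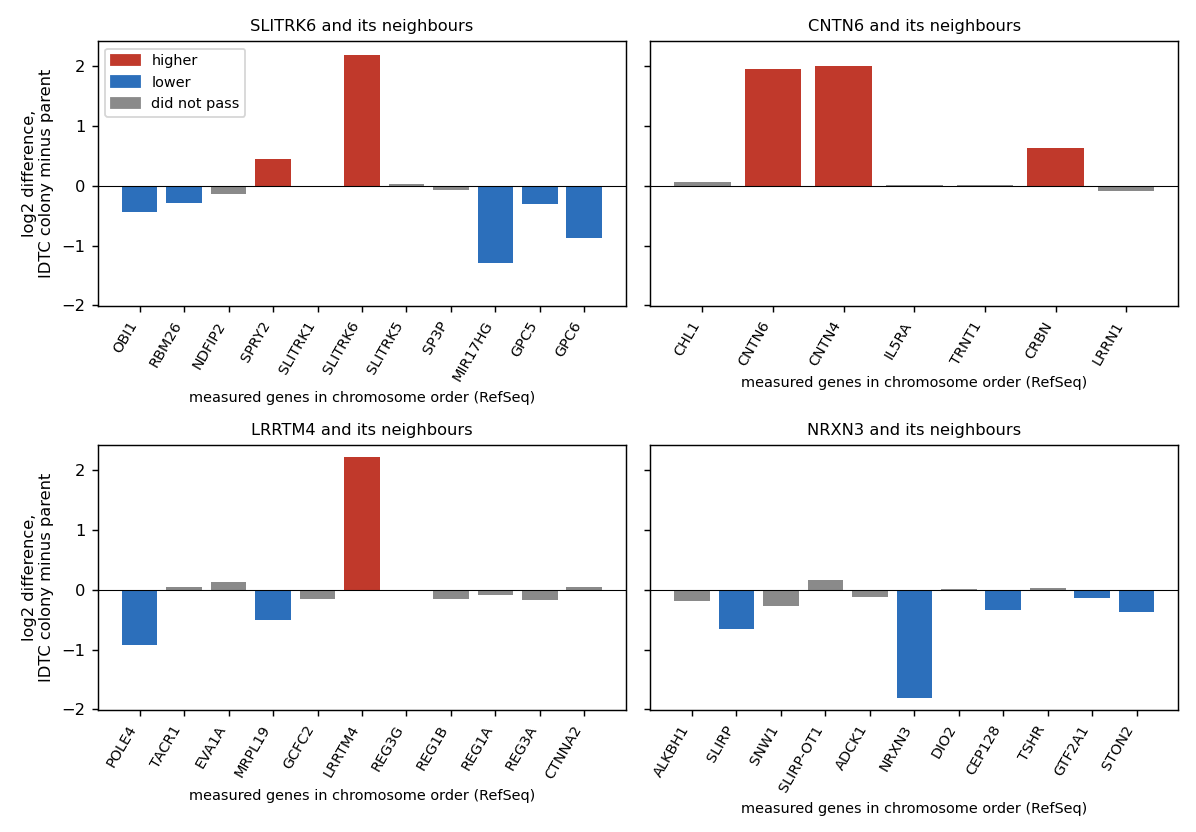
Log2 difference (IDTC colony minus parent) of SLITRK6, CNTN6, LRRTM4 and NRXN3 and of up to 5 measured genes on each side, in RefSeq order. Bars are coloured by the limma call. SLITRK6 (2.18) stands between SLITRK1 (-0.01) and SLITRK5 (0.02), while CNTN6 (1.95) and CNTN4 (2.00) stand side by side next to CHL1 (0.06).

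CNTN1, CNTN2 and CNTN5 had differences of 0.01, -0.03 and 0.04, and the contactin-associated genes CNTNAP2, CNTNAP4 and CNTNAP5 had -0.16, -0.07 and 0.07. All 6 were under the array median in both groups, and 0 of the 3 CNTNAP genes had an unadjusted p under 0.05 by limma. CNTNAP1, which pairs with CNTN1 beside the nodes of Ranvier, is not one of the 47 and belongs to a list of further adhesion relatives. It read 8.81 ± 0.07 in colonies and 5.94 ± 0.11 in parent samples (2.87 ± 0.07, adjusted p = 1.5e-07), a larger rise than that of any of the 47, and the parent mean was again under the array median.

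NCAM1, the neural cell adhesion molecule also known as CD56, read 9.45, 9.42 and 9.43 in the colonies, against 8.42, 8.31 and 8.37 in the parent samples. NCAM1 rose by 1.07 ± 0.05 (adjusted p = 2.0e-06), or 2.10-fold, with no overlap and with both means above the array median. The nearest measured genes were LOC100132686 (-0.08) and TTC12 (0.37), and the 50 neighbours had a median of -0.03.

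The L1 family, which binds ankyrin inside the cell and guides axons, split within itself. L1CAM had the same deposited value, 10.14, in all 3 colonies, against 9.89, 9.81 and 9.84 in the parent samples, and rose by 0.29 ± 0.04 (adjusted p = 9.7e-04). NRCAM and NFASC, which gather sodium channels at nodes of Ranvier, fell. NRCAM read 7.01 in each colony, against 7.67, 7.50 and 7.44 in the parent samples (-0.53 ± 0.07, adjusted p = 3.7e-04). NFASC read 6.33, 6.09 and 6.19 in the colonies, against 7.03, 7.12 and 7.19 in the parent samples (-0.91 ± 0.07, adjusted p = 3.8e-05). L1CAM was thus higher and NRCAM and NFASC lower in every colony than in any parent sample. Around NRCAM the 50 neighbours had a median of -0.33, with 30 called lower, and around NFASC 0.30, with 31 called higher. Any link between the differences of NRCAM and NFASC and their surroundings was not tested.

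CADM proteins are nectin-like molecules that also act where Schwann cells wrap axons. CADM4 rose by 0.84 ± 0.06 (adjusted p = 2.8e-05), with 9.46, 9.41 and 9.61 in colonies against 8.59, 8.67 and 8.69 in parent samples, and CADM3 did not pass (-0.01, 95% interval -0.16 to 0.14). The colonies' lowest CADM4 value was above the highest parent value. CADM1, from the list of adhesion relatives, was lower (-0.38).

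IgLON proteins are small lipid-anchored molecules of neuronal surfaces that bind one another. LSAMP fell by 0.90 (SE 0.06, adjusted p = 1.5e-05), reading 8.64, 8.85 and 8.74 in the colonies, against an identical deposited value of 9.65 in the 3 parent samples. The 50 genes around it had a median of 0.24 with 29 called higher, and its immediate neighbours were GAP43 (0.13, not past the test) and IGSF11 (0.61, higher). NEGR1 fell by 0.28 (SE 0.06, adjusted p = 0.0058) with both group means under the array median. OPCML and NTM did not pass, at 0.02 and -0.0028, and were likewise under the array median in both groups.

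MCAM, the melanoma cell adhesion molecule also called CD146, and ALCAM, also called CD166, are surface proteins long studied in melanoma. MCAM read 10.89, 10.92 and 10.92 in the colonies, against 10.42, 10.45 and 10.48 in the parent samples, and rose by 0.47 ± 0.04 (adjusted p = 7.1e-05). Colonies were above parent samples on every array. ALCAM read 4.28, 4.04 and 4.37 in the colonies and 4.09, 4.14 and 4.27 in the parent samples. Its groups overlapped, both means were under the array median, and it did not pass the test (0.07, 95% interval -0.15 to 0.28, adjusted p = 0.61).

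The last 3 genes encode no classical adhesion molecule. PRIMA1, which anchors acetylcholinesterase in neuronal membranes, rose by 0.70 ± 0.06 (adjusted p = 6.2e-05), reading 7.58, 7.59 and 7.61 in colonies against 6.80, 7.02 and 6.86 in parent samples. SYT11, a synaptotagmin of vesicle membranes that does not bind calcium, rose by 0.45 ± 0.08 (adjusted p = 0.0030) while both means lay under the array median. Its neighbours had a median of 0.21, with 28 called higher and 5 lower. GAP43, a growth cone protein of regenerating axons, did not pass (0.13, 95% interval -0.03 to 0.28).

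Low deposited values were common. For 22 of the 47 genes, or 46.8%, both group means lay under the array median, as they did for 37.4% of all genes. Of these 22, NEGR1 and SYT11 were called, or 9.09%, beside 11.7% of all such genes. The other 20 account for most of the 26 that did not pass, and the remaining 6 were NRXN2, NLGN3, LRFN1, LRFN3, LRFN4 and CHL1. The 95% intervals of the 26 lay between -0.42 and 0.39, so a difference of 2-fold was outside each of them on the scale of the deposited values. In 17 of the 47 genes at least 2 of the 6 arrays had an identical deposited value, as in 5595 of all 18417 genes.

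**Figure D4:**
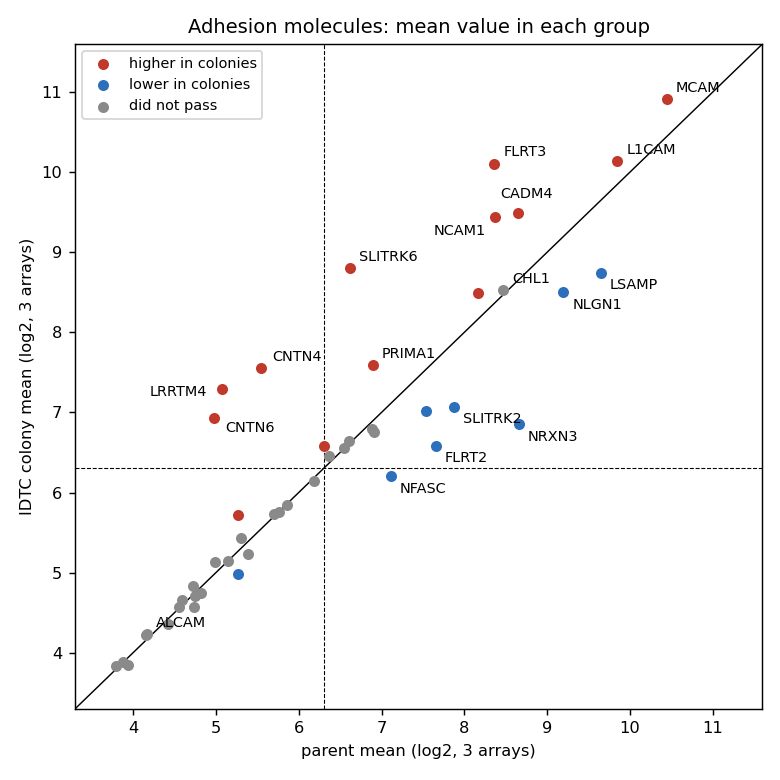
Mean deposited log2 value in IDTC colonies (vertical axis) against parent samples (horizontal axis) for the 47 genes, coloured by the limma call. The solid line marks equal means and the dashed lines the array median of 6.31. LRRTM4, CNTN4 and CNTN6 lie in the upper left, above the median in colonies and under it in parent samples, and NFASC in the lower right.

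Genes that work with these molecules were read from 5 further lists, to be set beside the 20.9% of all genes called higher and the 22.9% called lower. Among partners and presynaptic receptors, 6 of 16 measured genes fell and 2 rose, the other 8 staying short of the threshold, with a median of -0.09. The share called, 50%, was near the 43.8% of all genes. PTPRD, a receptor phosphatase bound by SLITRK proteins, fell by 1.77 (SE 0.11, adjusted p = 1.3e-05), while its relatives PTPRF (0.77) and PTPRS (0.21) rose. GPC4, the glypican bound by LRRTM4, fell by 1.21 (SE 0.08, adjusted p = 1.8e-05), with means of 6.72 ± 0.15 in colonies and 7.94 ± 0.08 in parent samples. LRRTM4 rose in the same samples. ADGRL1 (-0.39) and ADGRL2 (-0.89), latrophilins that bind FLRT proteins, fell, and ADGRL3 (-0.26) did not pass.

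Of 17 scaffolds and anchors, 8 were higher, 4 lower and 5 without a call (70.6% called), with a median of -0.0053. DLG1 (0.69), a membrane-associated scaffold, and APBA1 (0.68), an adaptor of presynaptic terminals, had the largest measured rises. HOMER1 (-0.86), which ties glutamate receptors to the postsynaptic density, and EPB41L3 (-0.51), which binds CADM proteins, had the deepest falls. ANK3, the ankyrin that binds L1 family proteins at nodes, rose by 0.66. Among proteases that shed adhesion molecules, 4 of 8 rose, 1 fell and 3 did not pass (62.5% called, median 0.08). MMP2 rose by 2.64 ± 0.04 and NCSTN, a subunit of gamma-secretase, by 0.51 ± 0.04, and ADAM17 fell by 0.39.

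The 13 vesicle release genes included 4 higher, 5 lower and 4 without a call (69.2% called), with a median of -0.22. SNAP25 (1.06 ± 0.07) and VAMP1 (1.01 ± 0.11), partners in the SNARE complex that fuses vesicles with the membrane, rose. SV2A, a vesicle membrane protein, fell by 2.28 (SE 0.11, adjusted p = 3.3e-06) and UNC13A, which primes vesicles for release, by 2.26 (SE 0.08, adjusted p = 6.9e-07). Both had colony means under the array median (5.83 and 5.33) beside parent means of 8.11 and 7.59. Of 13 further adhesion relatives, 3 rose, 5 fell and 5 did not pass (61.5% called, median -0.10). Besides CNTNAP1, the laminin receptor gene BCAM rose (0.82), and CDH2, which encodes N-cadherin, fell by 1.42 (SE 0.06), as did NPTN (-0.48).

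**Figure D5:**
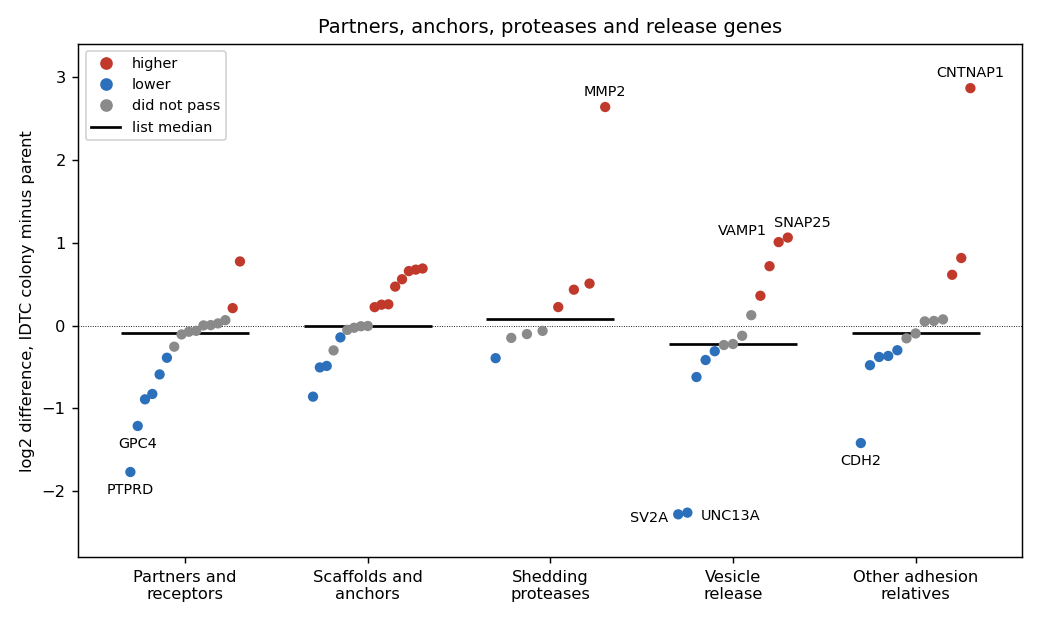
Log2 difference (IDTC colony minus parent) of each measured gene in 5 lists of partners, scaffolds, proteases, release genes and other adhesion relatives, coloured by the limma call, with the list median as a bar. Medians lie between -0.22 and 0.08, and the genes farthest from 0 are CNTNAP1 (2.87), MMP2 (2.64), SV2A (-2.28) and UNC13A (-2.26).

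Markers of neurons and glia were read beside these genes, again with 43.8% of all genes called. Of the 11 neuronal markers, 2 rose, 1 fell and 8 did not pass (27.3% called). Their mean level per array ran from 5.87 to 5.93 in colonies and from 5.66 to 5.73 in parent samples. MAP2 (1.20 ± 0.06) and SNAP25 were the 2 that rose, and SYN1 (-0.31) fell. Of 6 measured Schwann cell and glial markers, which include the melanocyte lineage genes SOX10 and S100B, 4 rose, 1 fell and 1 did not pass (83.3% called), with mean levels of 9.44 to 9.47 in colonies and 8.81 to 8.87 in parent samples. The myelin protein gene MBP rose by 2.31 ± 0.06, NGFR by 0.97, S100B by 0.57 and SOX10 by 0.42, FABP7 fell (-0.57), and the astrocyte gene GFAP did not pass (0.04). Among 9 melanocytic markers 4 rose, including PMEL (0.33) and PAX3 (0.95), 3 fell, including MLANA (-1.45), and 2 did not pass (77.8% called). Mean levels were 9.96 to 9.97 in colonies and 9.92 to 9.96 in parent samples. Fibroblast markers fell in 2 of 6 (33.3%), LUM (-0.34) and PDGFRA (-0.57), and 4 did not pass, COL1A1 (0.20) among them. Endothelial markers passed in 0 of 6 by limma (0 at an unadjusted p under 0.05, differences between -0.15 and 0.08). Leukocyte markers fell in 2 of 5 (40%), CD68 (-1.27) and LYZ (-2.35). Mean levels in colonies and in parent samples were 6.06 to 6.07 and 6.16 to 6.21 for fibroblast markers, 5.39 to 5.42 and 5.34 to 5.47 for endothelial markers, and 5.85 to 5.89 and 6.57 to 6.60 for leukocyte markers. The part of these marker shifts in the differences of the adhesion genes was not tested.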

How the data were processed

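Gene expression was measured in 3 IDTC colony and 3 parent samples, grouped by title. By their range, the deposited values are log2 expression values, 1 per probe set and array. Affymetrix Expression Console made them, per the submitters' processing notes. Background correction, normalization, summarisation and software version were not given in the sources used here. The 6 medians ran from 6.25 to 6.34. Nothing says whether the samples were separate cultures, so the spread behind each p-value is that of these samples and may be technical. No batch was named, and batch and group cannot be told apart.

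Of 33297 probe sets, 19460 had 1 gene symbol, 1754 several and 12083 none, and 19429 of the first matched the RefSeq table (GRCh38.p14) by Entrez ID. That table gave names and gene order. The probe set with the highest mean was used for each of 18417 genes, with no filter. Colonies were compared with parent samples by limma (lmFit, eBayes, 2-sided, group only), adjusted by Benjamini-Hochberg over all genes, and the procedure was tested on simulated data. Neighbours are the 25 nearest measured genes above the array median on each side.

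The 47 genes, the lists and the named genes were chosen with earlier results of these data known. Values of every array were given for genes called at 2-fold or more and for MCAM, L1CAM, NCAM1 and ALCAM. From each partner list the 2 largest rises and the 2 deepest falls were named. Other genes were named, and their array values given, after their values were seen. Promoter motifs were also chosen then. Alternatives were a common median, quantile normalization, genes above the array median, the mean of probe sets, each array left out, the replicate number as a block, eBayes with trend and robust options, all probe sets, and other thresholds for low values. R 4.3.3, limma 3.58.1 and Python 3.11.15 were used.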

Additional observations from a re-analysis of the deposited data

How the results depend on the processing

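Across 13 alternatives, 20 of the 21 called genes kept their call and direction wherever they were in the fit. FLRT1 was the exception and lost its call in 7. Some alternatives leave the log2 difference of a called gene unchanged by construction, so its direction could not turn there. These were genes above the array median, the mean of probe sets, all probe sets, trend and robust options, and the replicate block. The count of genes higher was 12 or 13 and that of genes lower 8 or 9, also with each array left out, except with only genes above the array median, which held 23 of the 47 (10 higher and 7 lower). The median of the 47 ran from -0.013 to 0.054 over the arrays left out and was -0.0015 with a common median, so it has no settled sign. The number under the array median in both groups was 22 at the lowest and at the highest array median. Same-numbered samples showed no shared deviation: their deviations correlated at -0.09, -0.06 and -0.01, and those of samples with unlike numbers at -0.05 to 0.11. With 3 arrays per group, this cannot exclude a pairing by sample number. The replicate block in limma gave 12 higher and 8 lower, ending only the FLRT1 call (adjusted p = 0.082).

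Direction turned for 14 genes, none of them called in either setting. With a common median this held for CNTN1 (-0.017), NLGN3 (-0.0079), OPCML (-0.0070) and SLITRK5 (-0.0015), and with quantile normalization for CNTN1 (-0.016) and NLGN3 (-0.016). Over the arrays left out, the differences ran from -0.030 to 0.047 for CNTN1, -0.060 to 0.080 for NLGN3, -0.034 to 0.074 for OPCML and -0.045 to 0.088 for SLITRK5. They ran from -0.039 to 0.021 for SLITRK1, -0.042 to 0.115 for SLITRK3, -0.056 to 0.054 for NTM and -0.0023 to 0.162 for ALCAM. For CADM3 the range was -0.073 to 0.035, for CNTN2 -0.063 to 0.0024 and for CNTN5 -0.0092 to 0.077. For CNTNAP5 it was -0.013 to 0.124, for LRRTM2 -0.017 to 0.225 and for NRXN2 -0.065 to 0.108. LRFN2 without parent replicate 1 (-0.28, adjusted p = 0.013), CNTNAP2 without parent replicate 2 (-0.28, adjusted p = 0.012) and LRRTM3 without parent replicate 3 (0.24, adjusted p = 0.045) gained a call. The number of arrays and the many low deposited values limit what can be seen in the genes under the array median.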
